A study of Mus musculus with 14 samples.

Results

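The genes described here encode the subunits of the ligand-gated ion channels for GABA, glycine and acetylcholine in mouse spinal neurons. Members were all gene entries whose symbol names an alpha, beta, gamma, delta, epsilon, theta or rho subunit of the GABA-A receptor, an alpha or beta subunit of the glycine receptor, or an alpha, beta, gamma, delta or epsilon subunit of the nicotinic acetylcholine receptor. Of 23523 gene entries, 39 met this rule, each symbol with 1 entry: 18 GABA-A, 5 glycine and 16 nicotinic subunits, the last divided into 11 neuronal subunits and 5 of the muscle receptor. The rule reads the symbol alone and no measured value, but the set was chosen with earlier results of these data known. These receptors are rings of homologous subunits around a central pore. GABA-A and glycine receptors pass chloride, and in embryonic spinal neurons, which keep a high internal chloride, their opening can excite the cell. Nicotinic receptors pass cations. Motoneurons release acetylcholine onto muscle, where the muscle receptor answers it, and also express neuronal nicotinic subunits of their own.

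Messenger RNA was measured in 13 libraries. Motoneurons lacking both genes of the microRNA miR-218 (label 218DKO, here DKO) gave 2 libraries and wild-type (WT) motoneurons gave 6. Both carried the Hb9::gfp reporter, were dissected from E12.5 embryonic spinal cord, dissociated with papain and sorted for GFP. The interneurons were wild type at the same age, with 1 library each. V1 cells carried En1:cre;Rosa26:LSL:tdTomato, V2a cells Chx10:cre;Rosa26:LSL:tdTomato and V3 cells Sim1:cre;Rosa26:LSL:tdTomato, and all were sorted for tdTomato. With this reporter a cell stays labelled once Cre has acted, whether or not the driver gene is still on. Wild-type mES cells, an embryonic stem cell culture, had been differentiated for 4 days in retinoic acid and a sonic hedgehog agonist. They gave 1 library of motoneuron progenitors (mES pMN), sorted through Olig2:cre;Rosa26:LSL:tdTomato, and 1 of unsorted neural progenitors (mES NP). A floor plate sample was not analysed here. The labels do not say whether replicates were separate embryos, so p-values measure the spread between these samples, which may be technical.

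Values are the authors' deposited signal, whose method is not given in the sources used here. It behaves as an abundance per length of transcript scaled between libraries. Comparisons of level between different genes rest on this reading. Approximate depth was 7.39 M and 15.5 M reads in the DKO libraries, 11.7 to 28.2 M in WT motoneurons, 16.2 to 17.4 M in interneurons and 23.1 and 25.7 M in the mES libraries, and 3 reads of a member corresponded to a signal of 0.144 to 4.94, depending on transcript length and depth. Motoneuron markers followed the labels. The summed signal of 7 of them was 10084 and 9472 in DKO and 13648 to 17253 in WT motoneurons. It was 51.6 in V1, 1638 in V2a and 294 in V3 cells. The lower DKO sum lay in Prph, the intermediate filament peripherin, at 448 and 459 in DKO against 4826 to 7874 in WT motoneurons, while Mnx1, the gene of the Hb9 reporter, was at 4330 and 3863 against 2194 to 3995. Much of the V2a sum came from Slc18a3, the vesicular acetylcholine transporter, at 1202. The 5 V1 genes summed to 9908 in V1 cells and to at most 520 elsewhere. Some other marker lists followed the labels less closely. The 5 V2a genes summed to 13983 in V2a and 1618 in V3 cells. The 3 V3 genes summed to 5246 in V3 and 1445 in V2a cells, and Slc17a6 is in both lists. The 7 progenitor genes summed to 12472 in mES pMN and 2970 in mES NP cells, against 4167 to 5746 in WT motoneurons. The V2a library also had 4703 summed over 5 blood genes, against 4.42 to 672 in the other 12 libraries. In DKO motoneurons, 4 cell cycle genes summed to 57.0 and 50.4 and 4 mesenchyme genes to 3.47 and 3.49, against 108 to 171 and 5.77 to 196 in WT motoneurons. The cell cycle genes summed to 70.7 in V1, 419 in V2a and 990 in V3 cells, and the mesenchyme genes to 12.6, 156 and 606. The part of these in the results below was not tested. WT replicates 2, 3 and 4 had 10197 to 27943 of the ribosomal RNA precursor Rn45s, and replicates 1, 5 and 6 had 644 to 4275, so values are also given within each of these sets of WT libraries where they matter. In bulk samples, fewer cells of a type and less RNA per cell cannot be told apart.

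The miR-218 guide strand and the matches to it in the members' 3′ untranslated regions are shown first, because they are what a subunit message would present to the microRNA that the DKO motoneurons lack. Both miR-218 genes give the same mature RNA (RefSeq, GRCm38.p6, chr5:48223966-48223986 and chr11:35616840-35616860, both plus strand). Capitals mark the seed, bases 2 to 8 from the 5′ end.
miR-218-5p: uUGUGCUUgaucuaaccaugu
A 7mer-m8 site is AAGCACA, the complement of the seed, a 7mer-A1 site is AGCACAA, and an 8mer site is AAGCACAA. Of the 39 members, 10 (25.6%) had a site in the 3′ untranslated region of a listed transcript in GENCODE M21 (GRCm38), against 17.6% of 19233 genes. By strongest site, none was an 8mer (3.71% of genes). Class 7mer-m8 held 7 members (17.95%, against 9.21% of genes), and class 7mer-A1 held 3 (7.69%, against 4.65%). These shares were not adjusted for the length of the untranslated region. The sites of 4 members with values in the text are given on the strand of the message with their neighbouring bases, the site in capitals.
Gabra5 (chr7:57408031-57408057, minus strand): atttaatgacAAGCACAtagtgtctta
Gabrg3 (chr7:56719947-56719973, minus strand): tcatatctgtAAGCACAgtacaaggtt
Gabrb2 (chr11:42627433-42627459, plus strand): atgcattttgAGCACAAtgaaagtaag
Chrnb2 (chr3:89753118-89753144, minus strand): aacgtgaaggAAGCACAgtgggaggag
Gabrg3 had a 7mer-A1 site as well, and other sites lay in Chrna10, Chrnb3, Chrng, Gabrr1 and Glra3. A match is a description of the sequence and does not show that the microRNA binds there. The Chrnb2 site also lies in an exon of Adar, a gene on the opposite strand.

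**Figure D1:**
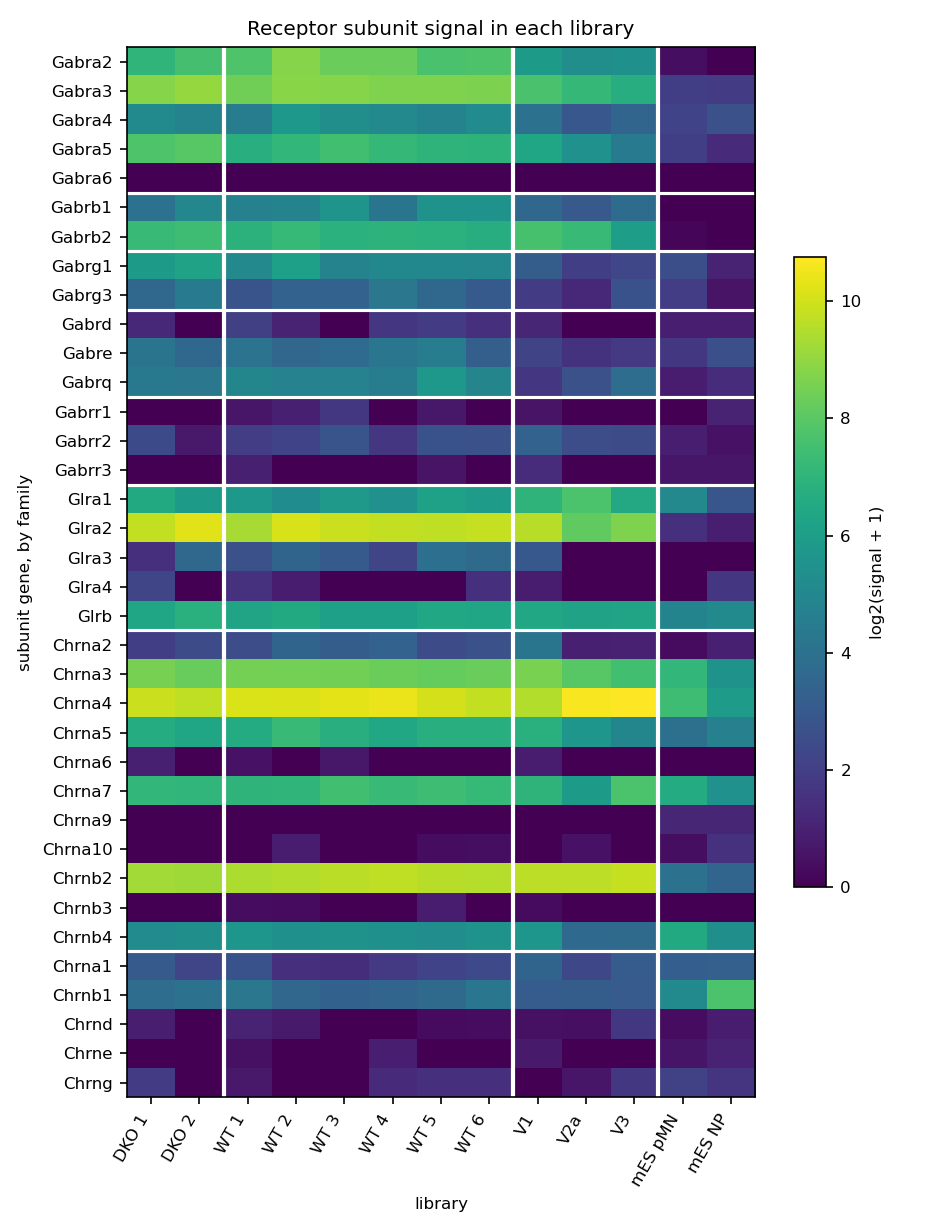
Signal of 36 subunit genes as log2(signal + 1), in 2 DKO and 6 WT motoneuron libraries, 3 interneuron libraries and 2 mES libraries (columns), with genes grouped by family (rows). Chrna4, Glra2 and Chrnb2 are bright in every spinal library, and Gabra6, Chrna9, Chrna6 and Chrne are dark throughout.

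A minority of these genes was abundant in embryonic spinal neurons. In WT motoneurons the 3 most abundant members were Chrna4, Glra2 and Chrnb2, with mean signals of 1149 ± 177, 883 ± 147 and 769.5 ± 55.3 (SD, n = 6 each). They encode the subunits of the main neuronal nicotinic receptor of brain (alpha4 and beta2) and the fetal glycine receptor alpha subunit. Between 11 and 12 members reached a signal of 100 in each WT library. In contrast, Gabra6, Chrna6, Chrna9 and Chrne lay below 3 reads in all 13 libraries and Chrna10 in all 11 neuron libraries. Gabra6, the alpha6 subunit known from cerebellar granule cells, was listed at 0 throughout.

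The GABA-A alpha, the glycine alpha and the neuronal nicotinic families were each led by the same subunit in DKO motoneurons, WT motoneurons and every interneuron library, except that in V1 cells Chrnb2 exceeded Chrna4. Among the GABA-A alpha subunits Gabra3 led, with 52.3% of the summed alpha signal in both DKO libraries, 41.2 to 52.4% in WT motoneurons, 53.2% in V1, 58.6% in V2a and 58.2% in V3 cells. The rho subunits Gabrr1, Gabrr2 and Gabrr3, known best from retina, summed to at most 11.4 in any library. Gabrd, the delta subunit of receptors outside synapses, was at most 3.16.

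Glra2 held 89.9 and 94.8% of the glycine receptor alpha signal in DKO and 91.0 to 95.9% in WT motoneurons. Glra1, the alpha subunit of the adult spinal receptor, was the second. The shared beta subunit, Glrb, which anchors the receptor to gephyrin, had 79.0 and 113 in DKO motoneurons, a median of 79.9 in WT motoneurons (65.3 to 92.4), and 85.0, 71.4 and 77.3 in V1, V2a and V3 cells. It was thus below the summed alpha subunits, at 705 to 1144 in WT motoneurons, in each of these libraries.

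Among neuronal nicotinic subunits Chrna4 and Chrnb2 led in the motoneuron and interneuron libraries, and the third was Chrna3, which with Chrnb4 forms the receptor of autonomic ganglia, except in V3 cells, where it was Chrna7. Chrna4 had 42.8 and 42.2% of the neuronal nicotinic signal in DKO, 39.2 to 48.5% in WT motoneurons, 32.5% in V1, 57.9% in V2a and 56.5% in V3 cells. The muscle receptor genes were low in motoneurons, which do not form the postsynaptic side of the neuromuscular junction. Chrnb1 was the highest, at 13.4 and 15.1 in DKO and 9.08 to 18.1 in WT motoneurons. Chrna1 was at 7.25 and 3.76 in DKO, 1.64 to 5.50 in WT motoneurons and 4.02 to 9.93 in interneurons. Chrnd, Chrne and Chrng were each at most 3.36 in all libraries.

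Motoneurons without miR-218 were set against WT motoneurons to ask how the subunit genes differ when the microRNA is absent. A single subunit differed past the threshold, an adjusted p of 0.05: Gabra5, the alpha5 subunit, known from receptors outside synapses, was higher in DKO motoneurons. It had 223 and 250.0 in the DKO libraries and 108 at the lowest, 132 at the median and 178 at the highest in the 6 WT libraries. The groups did not overlap, and the difference was 1.75-fold (log2 0.81, SE 0.18, limma adjusted p = 0.0204). Of the 30 members tested, 1 was higher (3.33%), against 3.22% of the 16260 genes tested, and 0 were lower, against 4.77%. At an unadjusted p under 0.05, 6 of the 30 members (20%) differed by limma, against 26.4% of all genes tested. The median difference of the 30 members was 0.07 on the log2 scale and that of all genes tested 0.0015. The other 9 members were below the filter of a mean signal of 1.

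The Gabra5 call held within both sets of WT libraries, with adjusted p = 0.0405 against replicates 2, 3 and 4 (log2 0.64) and 0.00627 against replicates 1, 5 and 6 (log2 0.98, limma). It was lost without DKO replicate 1 (log2 0.89, limma adjusted p = 0.141) and without DKO replicate 2 (log2 0.73, 0.213). Of the exon bases of Gabra5, 5.54% lie in exons of Gm9962, an antisense gene, and the library kit does not mark strand.

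Gabrg3, which lies beside Gabra5 on chromosome 7 and carries a site of the same class, had 10.9 and 20.2 in DKO against a median of 9.51 in WT motoneurons (5.92 to 18.3). The groups overlapped, and it did not pass the threshold (log2 0.57, limma adjusted p = 0.388). The 7 tested members with a miR-218 site had a median log2 difference of 0.14 (range -0.65 to 0.81, 5 above 0), and the 23 without one a median of -0.01 (range -0.78 to 0.87, 11 above 0). All genes were not split by site in this way, and the difference between these sets of members was not tested.

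Including Gabra5, 7 of 30 members (23.3%) had DKO values outside the whole WT range, against 30.7% of all genes tested. Gabra2, the alpha2 subunit of immature synapses, had 129.9 and 191 in DKO against a median of 264 in WT motoneurons (203 to 443). Its log2 difference was -0.78 (SE 0.28, limma adjusted p = 0.109), and the WT values themselves were split, with a mean of 355 in replicates 2, 3 and 4 and 211 in replicates 1, 5 and 6. Against the first of these sets it passed (log2 -1.14, limma adjusted p = 0.0193), and against the second it did not (log2 -0.42, limma adjusted p = 0.125). Gabra2 made up 15.1 and 18.6% of the alpha signal in DKO and 25.9 to 40.1% in WT motoneurons, and Gabra5 made up 25.8 and 24.3% in DKO and 12.4 to 18.0% in WT motoneurons. Neither share overlapped between the groups.

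Chrnb2, the main nicotinic beta subunit, had 606 and 593 in DKO against a median of 762 in WT motoneurons (693 to 853). The log2 difference was -0.36 (SE 0.10, limma adjusted p = 0.0572), just outside the threshold. It passed without WT replicate 1 or 2, and within both sets of WT libraries (limma adjusted p = 0.0445 against replicates 2, 3 and 4, and 0.0434 against 1, 5 and 6). Of its exon bases, 15.8% lie in exons of Adar on the opposite strand. Reads of Adar may thus be part of the Chrnb2 value, by an amount that was not measured. Gabrb2 had 152 and 171 in DKO against 103 to 148 in WT motoneurons (log2 0.42, limma adjusted p = 0.111). Gabrq, the theta subunit, had 19.6 and 18.1 in DKO against 21.6 to 52.4 in WT motoneurons (limma adjusted p = 0.216). Chrna2 had 2.96 and 4.60 against 4.62 to 10.2 (limma adjusted p = 0.272). Gabrg1, the gamma1 subunit, had 56.9 and 73.3 in DKO and 26.8 to 32.2 in 5 WT libraries, and WT replicate 2 had 66.9. It passed without that library (log2 1.06, limma adjusted p = 0.0109) and did not with it (log2 0.87, 0.109). Both Gabrg1 and Gabrb2 passed against WT replicates 1, 5 and 6 alone (limma adjusted p of 0.0167 and 0.0357). Gabrb2 also passed without WT replicate 2 (limma adjusted p = 0.0332). Against either set of WT libraries alone, and without WT replicate 2, more of all genes passed than in the main fit, as counted at the end. Every such fit used the same DKO libraries, so these passes, those of other members included, are not separate support.

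None of the 5 glycine receptor subunits tested differed between DKO and WT motoneurons by limma (0 at an unadjusted p under 0.05), and of the 10 nicotinic subunits tested 0 did (2 at an unadjusted p under 0.05). Glra2 had 862 and 1239 in DKO against 645 to 1098 in WT motoneurons (log2 0.24, 95% interval -0.17 to 0.66), and Glra1 had 91.0 and 56.8 against 36.0 to 69.5 (log2 0.47, 95% interval -0.12 to 1.06). One DKO library exceeded the WT range for each, and it was not the same library. Chrna4 had 941 and 844 in DKO against 883 to 1384 (log2 -0.35, limma adjusted p = 0.175), and it passed against WT replicates 2, 3 and 4 alone (log2 -0.52, limma adjusted p = 0.0273). Gabra3 had 451 and 537 against 338 to 455 (log2 0.27, limma adjusted p = 0.219), and the groups overlapped.

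**Figure D2:**
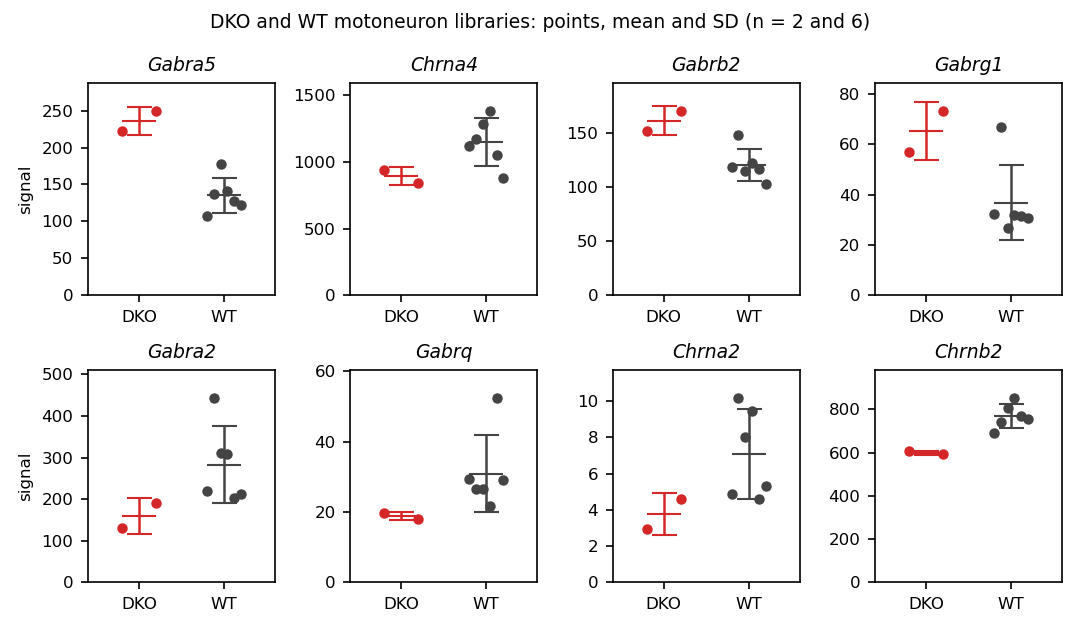
Signal of 8 subunit genes in each of the 2 DKO and 6 WT motoneuron libraries (points), with the mean and SD, on axes that start at 0. Gabra5 at 223 and 250.0 lies above all WT values and Chrnb2 at 593 and 606 below all of them, while Gabrg1 overlaps through 1 WT library at 66.9 and Chrna4 overlaps as well.

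WT motoneurons were then set against the ventral interneurons of the same age, to ask which subunits distinguish them. Motoneurons had more of 9 GABA-A subunits, including 4 of the 5 alpha subunits tested, more Glra2 and Glra3, and less Glra1. For Glra2 and Glra3, V1 cells lay within the WT range. Of 28 members tested, 11 were higher in motoneurons (39.3%), against 17.7% of 16486 genes tested, and 1 was lower, against 15.2%. The groups did not overlap for 11 of 28 members (39.3%), against 33.1% of all genes. By family, 9 of 15 GABA-A subunits were higher and 0 lower, 2 of 4 glycine subunits were higher and 1 lower, and 0 of 9 nicotinic subunits differed by limma (3 at an unadjusted p under 0.05). At that unadjusted p, 16 of the 28 members (57.1%) differed, against 45.2% of all genes tested. The median log2 difference of the 28 members was 0.93, and that of all genes tested -0.04. The 3 interneuron libraries are different cell types, so their spread includes differences between types.

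Gabra2 had a median of 264 in WT motoneurons (203 to 443) against 57.6, 39.0 and 41.4 in V1, V2a and V3 cells. This was 5.89-fold higher (log2 2.56, SE 0.25, limma adjusted p = 6.66e-05). Gabra3 had a median of 410.4 (338 to 455) against 199.6, 141 and 104 (log2 1.51, SE 0.18, limma adjusted p = 0.000218). Gabra5 had a median of 132 (108 to 178) against 81.0, 42.6 and 20.6 (log2 1.66, limma adjusted p = 0.00426). Gabra4, the alpha4 subunit, had a median of 34.0 (22.1 to 52.5) against 15.3, 6.59 and 10.3 (log2 1.62, limma adjusted p = 0.00403). All WT libraries lay above all interneuron libraries for each of these 4 subunits. The alpha subunits summed to 709 to 1104 in WT motoneurons, against 375 in V1, 241 in V2a and 179 in V3 cells. The summed beta and the summed gamma subunits overlapped between the groups, with V1 cells inside the WT range for both. Of 15 GABA-A subunits tested, 6 did not pass. Among them Gabrb2 had 103 to 148 in WT motoneurons against 195 in V1, 149.6 in V2a and 62.5 in V3 cells (log2 -0.03, limma adjusted p = 0.951).

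Among the less abundant subunits, Gabrg1 had 26.8 to 66.9 in WT motoneurons (median 31.7) against 8.04, 2.96 and 3.86 in V1, V2a and V3 cells (log2 2.68, SE 0.35, limma adjusted p = 0.00039). Gabrb1, the beta1 subunit, had a median of 35.9 (17.2 to 46.8) against 10.9, 7.01 and 13.0 (log2 1.59, limma adjusted p = 0.00718). With Gabra2 and Gabra4 these are the 4 genes of the cluster at chr5:70751047-72149037, and all 4 were higher in motoneurons. Exons of Gabra4 and Gabrb1 share 46 bases on opposite strands.
Gabre and Gabrq, the epsilon and theta subunits known from neuromodulatory nuclei, lie with Gabra3 in a cluster at chrX:72255999-72842602. Gabre had a median of 14.3 in WT motoneurons (8.49 to 22.1) against 3.64, 1.95 and 2.47 (log2 2.04, limma adjusted p = 0.00152). Gabrq had a median of 27.8 (21.6 to 52.4) against 2.26, 5.43 and 13.2 (log2 2.20, limma adjusted p = 0.00371). All 3 members of this cluster were higher in motoneurons. On chromosome 7, Gabrg3 was higher like Gabra5, with a median of 9.51 (5.92 to 18.3) against 2.70, 1.30 and 5.50 (log2 1.49, limma adjusted p = 0.0199).

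The glycine receptor alpha subunits differed in opposite directions. Glra1 was lower in motoneurons, with a median of 54.0 (36.0 to 69.5) against 127 in V1, 211 in V2a and 89.1 in V3 cells (log2 -1.35, SE 0.28, limma adjusted p = 0.00488), and the groups did not overlap. Of its exon bases, 5.9% lie in exons of Gm12236. Glra2 had a median of 878 in WT motoneurons (645 to 1098) against 768, 278 and 404 (log2 0.98, SE 0.26, limma adjusted p = 0.0176). V1 cells lay within the WT range for Glra2, and V2a and V3 cells below it. Glra1 made up 3.1 to 7.5% of the glycine alpha signal in WT motoneurons, against 14.1% in V1, 43.1% in V2a and 18.1% in V3 cells. Glra3 had a median of 8.63 in WT motoneurons (3.78 to 14.4) against 6.89 in V1 cells, and was listed at 0 in V2a and V3 cells (limma adjusted p = 0.0276).

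Of these 12 calls, 8 held under every alternative run, which included leaving out each of the 9 libraries and using either set of WT libraries alone. The exceptions were Gabra5 with WT replicates 1, 5 and 6 alone (limma adjusted p = 0.0606), Gabrg3 with those libraries (0.111) and without V2a (0.0925), Glra2 without V2a (0.0775) or V3 (0.0544) and with those WT libraries (0.141), and Glra3 in 6 fits, with the highest limma adjusted p at 0.127. For each of the 4 called alpha subunits the interneuron library closest to motoneurons was V1.

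**Figure D3:**
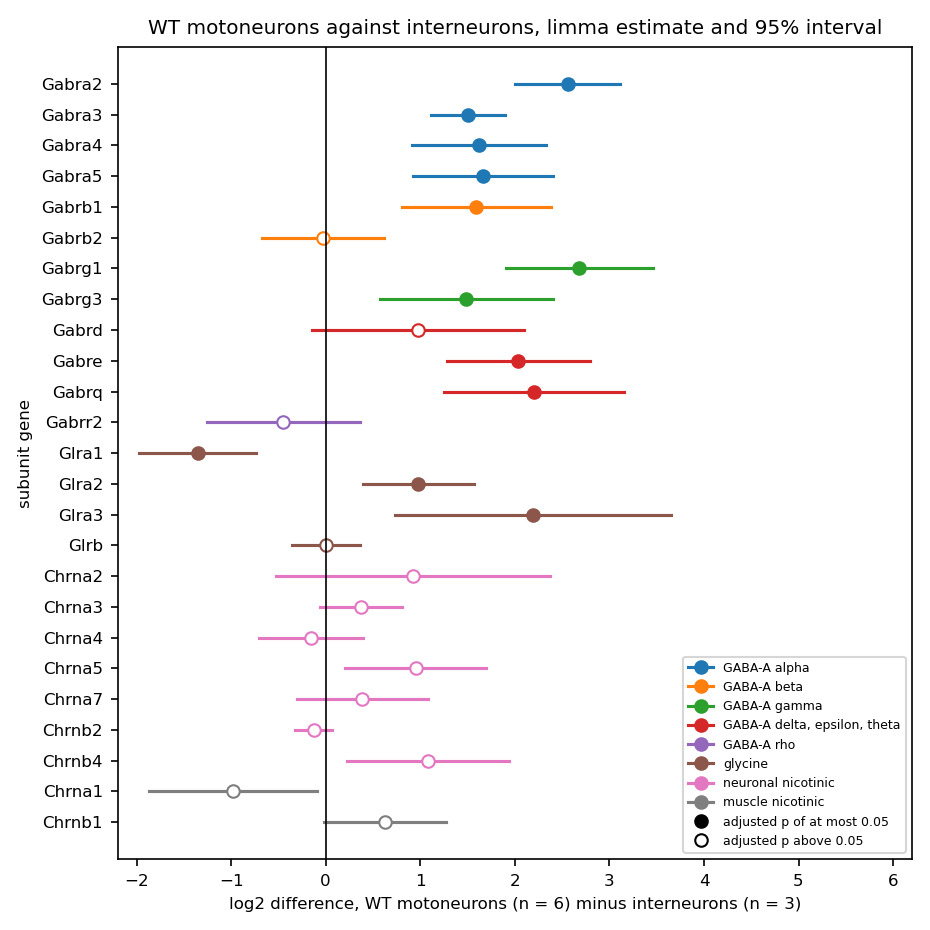
Log2 difference between 6 WT motoneuron and 3 interneuron libraries for 25 of the 28 tested subunit genes, with the 95% interval from limma (lines), coloured by family; filled points passed an adjusted p of 0.05. The 9 filled GABA-A points lie to the right of 0 (log2 1.49 to 2.68), Glra1 lies to the left at -1.35, and no nicotinic point is filled.

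Values also varied among the interneuron types, in nicotinic subunits of the alpha4 and ganglionic kinds and in some GABA-A subunits. Single libraries allow no test, so members were named where 1 interneuron library differed from both others by at least 1 log2 unit and the gene reached a signal of 20. Of 16 members that reached 20, this held for 7. V1 cells were higher for Chrna5 and Chrnb4 (2 members, against 2.94% of 12635 genes) and lower for Chrna4 (1 member, against 4.5%). V2a cells were lower for Chrna7 (1.08% of genes) and V3 cells lower for 3 members (2.07% of genes), Gabra5 and Gabrb2 among them.

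Chrna5, Chrna3 and Chrnb4 form a cluster of 67.9 kb at chr9:54980880-55048779 and encode the ganglionic type of receptor with its accessory alpha5 subunit. Chrna3 had a median of 339 in WT motoneurons (296 to 368) against 389.6 in V1, 245 in V2a and 181 in V3 cells. Chrna5 had a median of 105 (85.0 to 149) against 112, 49.2 and 29.4. Chrnb4 had a median of 42.3 (37.2 to 49.2) against 49.9, 11.8 and 12.2. For all 3 genes V1 cells were within or above the WT range, and V2a and V3 cells below every WT library. Chrna2, elsewhere in the genome, had 4.62 to 10.2 in WT motoneurons against 17.3 in V1, and 0.924 and 0.978 in V2a and V3 cells.

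Chrna4 ran the other way, with a median of 1145 in WT motoneurons (883 to 1384) against 723 in V1, 1619.7 in V2a and 1726 in V3 cells. With the V1 library left out, Chrna3, Chrna5, Chrnb4 and Chrna2 were higher in motoneurons (limma adjusted p of 0.00709, 0.0018, 0.00029 and 0.00482) and Chrna4 was lower (0.0238). Without V3 cells Chrna7 was higher in motoneurons (limma adjusted p = 0.0441), which had a median of 151 (125 to 181) against 125 in V1, 57.1 in V2a and 207 in V3 cells. Each library was left out in turn, and these fits are named because the library left out stood apart for these genes. Their p-values restate that pattern and are not a separate test. Chrnb2 did not pass in this comparison, with 810.1, 813 and 896 in V1, V2a and V3 cells (log2 -0.13, 95% interval -0.32 to 0.07).
In DKO motoneurons the chromosome 9 genes did not differ past the threshold. Chrna3 had 375 and 307, Chrna5 99.2 and 78.0, and Chrnb4 35.2 and 40.1, with limma adjusted p of 0.948, 0.407 and 0.594.

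**Figure D4:**
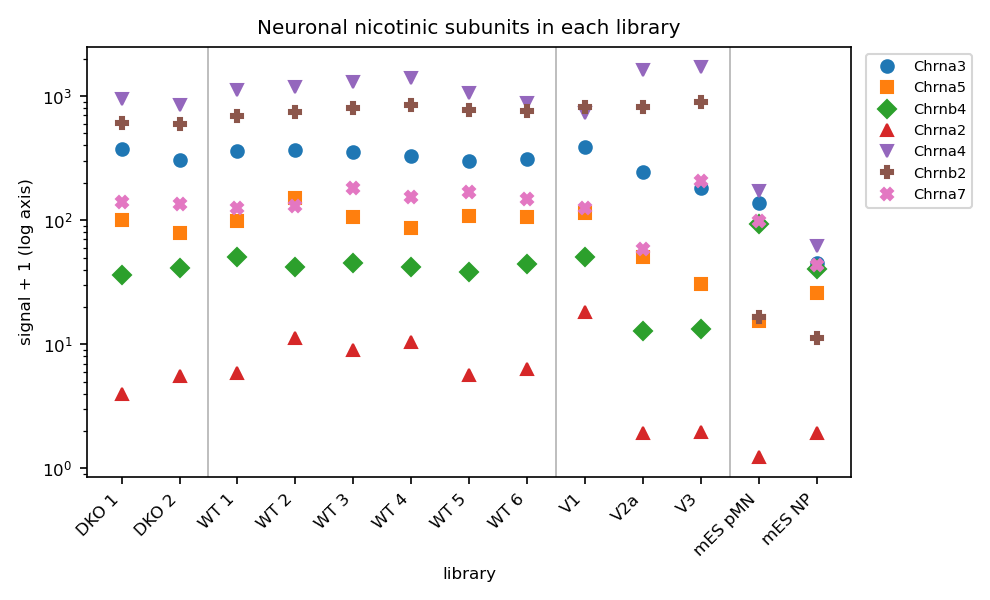
Signal + 1 (log axis) of 7 neuronal nicotinic subunit genes in all 13 libraries. Chrna3, Chrna5, Chrnb4 and Chrna2 are as high in V1 cells as in motoneurons and lower in V2a and V3 cells, and Chrna4 is lowest in V1 among the spinal libraries.

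Against mES progenitors, most genes differed, and embryo against culture cannot be told apart from neuron against progenitor. Of 29 members tested, 24 were higher in motoneurons (82.8%), against 30% of 17134 genes tested, and 2 were lower, against 36.2%. The groups did not overlap for 27 of 29 members, against 66.1% of all genes. Glra2 had 645 to 1098 in WT motoneurons against 1.77 in mES pMN cells and 0.882 in mES NP cells, Gabra2 had 203 to 443 against 0.337 and 0, and Gabra3 had 338 to 455 against 3.03 and 2.81. Gabrb1 and Glra3 were listed at 0 in both mES libraries.

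Nicotinic subunits were the most abundant members in the progenitors. In mES pMN cells the 3 most abundant members were Chrna4 at 171, Chrna3 at 137 and Chrna7 at 97.3, with Chrnb4 at 92.8. In mES NP cells they were Chrnb1 at 209.7, Chrna4 at 60.4 and Chrna3 at 44.6. Chrnb4 did not differ past the threshold (log2 -0.51, SE 0.30, limma adjusted p = 0.159), although it was lower in motoneurons when mES NP was left out (log2 -1.11, 0.0024). Chrna7 was 2.31-fold higher in motoneurons (limma adjusted p = 0.00327). Chrnb2 had 693 to 853 in WT motoneurons against 15.7 and 10.3 (log2 5.80, limma adjusted p = 1.32e-09), a wider difference than that of Chrna4 (log2 3.47) with which it assembles.

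The muscle subunits Chrnb1 and Chrna1 were the 2 members lower in motoneurons. Chrnb1 had 9.08 to 18.1 in WT motoneurons against 33.0 and 209.7 in mES pMN and NP cells (log2 -2.63, SE 0.58, limma adjusted p = 0.00226), and Chrna1 had 1.64 to 5.50 against 8.41 and 8.76 (log2 -1.28, limma adjusted p = 0.0219). Chrna1 lost its call without either mES library (limma adjusted p of 0.0664 and 0.075) and with WT replicates 1, 5 and 6 alone (0.0819). Among the higher members, Glra1 lost its call without mES NP (0.141) and with WT replicates 2, 3 and 4 alone (0.0808), and Gabre without mES pMN (0.0589). Skeletal muscle markers, 9 genes, summed to 18.5 to 50.5 in WT motoneurons against 218 and 419.5 in the mES libraries, led in mES NP by Des at 232, and Myod1 was at 0 in WT motoneurons and mES NP and 0.435 in mES pMN. Their part in these differences was not tested.

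Between the 2 mES libraries, which allow no test, 6 of the 8 members that reached a signal of 20 differed by at least 1 log2 unit. Chrna3, Chrna4, Chrna7, Chrnb4 and Glra1 were higher in mES pMN (7.91% of 12543 genes were) and Chrnb1 lower (12.6% of genes). Glra1 had 32.1 in mES pMN and 6.29 in mES NP cells. Cells of the first library had been sorted and those of the second had not.

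The proteins that place, chaperone or supply these receptors were followed in 4 lists, chosen like the members with earlier results of these data known. The list called nicotinic chaperones and modulators here also holds genes that cluster receptors at the muscle endplate, and its counts include them. In DKO motoneurons, 2 of 24 inhibitory synapse and chloride genes were higher and 0 lower, 0 of 7 metabotropic GABA and muscarinic receptors differed by limma (3 at an unadjusted p under 0.05), 1 of 12 nicotinic chaperones and modulators was higher and 1 lower, and 1 of 11 presynaptic GABA, glycine and acetylcholine genes was higher and 2 lower. Of all genes tested, 3.22% were higher and 4.77% lower, and 26.4% differed at an unadjusted p under 0.05. Nrxn3, a presynaptic neurexin, had 294 and 323 in DKO against 175 to 234 in WT motoneurons (log2 0.63, limma adjusted p = 0.019).

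Lypd6b, a toxin-like modulator of nicotinic receptors, had 117 and 126 in DKO against 43.3 to 68.9 in WT motoneurons (log2 1.02, limma adjusted p = 0.013), and Ly6e, of the same protein family, 255 and 331 against 430.1 to 578 (log2 -0.75, limma adjusted p = 0.0143). Ache, which breaks acetylcholine down, had 496.5 and 517 against 718 to 1083 (log2 -0.81, limma adjusted p = 0.00887), and Slc18a3 had 1410 and 1265 against 1658 to 2720.3 (log2 -0.70, limma adjusted p = 0.0347). Like that of Gabra5, each of these 5 calls was lost without DKO replicate 1 and without DKO replicate 2. The Slc18a3 call held in only 2 of 8 fits with 1 library left out: it was also lost without WT replicate 3, 4, 5 or 6 (limma adjusted p of 0.0546, 0.0517, 0.0506 and 0.0552) and with an untrended prior (0.0817). Gphn, the gephyrin scaffold of inhibitory synapses, had 609 and 585 in DKO against 539 to 828 in WT motoneurons (limma adjusted p = 0.603). Slc12a5, the chloride extruder KCC2, had 489.6 and 546 against 359 to 573 (limma adjusted p = 0.61).

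Against interneurons, WT motoneurons were higher for 7 and lower for 3 of 24 inhibitory synapse genes, higher for 4 of 7 metabotropic receptors, for 5 of 13 nicotinic chaperones and modulators and for 5 of 11 presynaptic genes, and lower for 4 of these 11. Of all genes tested, 17.7% were higher and 15.2% lower. Gphn was among the higher genes, with 539 to 828 in WT motoneurons against 464 in V1, 466 in V2a and 312 in V3 cells (log2 0.70, limma adjusted p = 0.0132), a call lost without the V3 library (0.0558) and with WT replicates 1, 5 and 6 alone (0.0905). Lypd1, another toxin-like modulator of nicotinic receptors, had 432 to 921 in WT motoneurons against 141, 85.5 and 40.5 (log2 3.04, limma adjusted p = 0.000202). Against mES progenitors, WT motoneurons were higher for 18 and lower for 2 of the 24 inhibitory synapse genes, higher for 5 and lower for 2 of 8 genes for metabotropic receptors and the GABA-A pi subunit (Gabrp), higher for 10 and lower for 3 of 13 nicotinic chaperones and modulators, and higher for 10 of 11 presynaptic genes. In that comparison 30% of all genes tested were higher and 36.2% lower. Slc12a5 had 359 to 573 in WT motoneurons against 13.7 and 10.3 in mES pMN and NP cells, and Slc12a2, the chloride importer NKCC1, had 106 to 141 against 255 and 274.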

How the data were processed

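The authors deposited a signal per gene on RefSeq models, per the file headers. It behaves as length-scaled and was not a read count, and how reads were divided between transcripts of 1 gene is unknown. The submitters' processing notes name DESeq, bedtools, mm9 and mm10 without a role, and the aligner is not given in the sources used here. Approximate reads came from the whole-number steps of low values (77.2 to 78.9% of genes within 0.1 of a whole multiple, 20% by chance), and 3 reads were taken as the floor; it covers counting error only. Differences were tested with limma 3.58.1 (R 4.3.3) on log2(signal + 1), trended prior, mean signal of at least 1, two-sided, Benjamini-Hochberg over all genes, threshold 0.05; folds on this scale understate the change of low genes. The fit was tested on simulated data. The design had named counts or normalized values; the form for normalized values was used. The members, lists and comparisons were chosen with earlier results of these data known. Members named with values passed a test, differed by at least 1 log2 unit between groups or single libraries, or were the most abundant of a library or family; others were named after their values were seen. Coordinates and exons are from GENCODE M21 on GRCm38, matched by transcript. Alternatives were a pseudocount of 5, no filter, median-ratio size factors, an untrended prior, summed rows, each library left out, each set of WT libraries, and a replicate block. Some members and listed genes are not reported here, although counts and sums include them. No library copied another (highest correlation 0.993).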

Additional observations from a re-analysis of the deposited data

Results flagged for a closer look

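The 28 members with a mean signal of at least 1 in WT motoneurons were searched for 1 library lying far from the other 5 WT libraries, by a gap of over 0.625 of the whole range. In WT replicate 2, Gabrg1 was at 66.9 (26.8 to 32.2 in the others) and Chrna5 at 149 (85.0 to 107). In WT replicate 5, Gabrq was at 52.4 (21.6 to 29.4). Chance gives such a gap in about 1 in 20 groups.

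For the members below, interneuron libraries lay on both sides of all 6 WT motoneuron libraries. These differences between single libraries were not tested, and each is given as the log2 gap between the highest and the lowest interneuron library outside the WT range. For Chrna4 (1.25), V2a and V3 cells were above and V1 cells below. For Chrna3 (1.10) and Chrnb4 (1.99), V1 cells were above and V2a and V3 cells below. For Chrna7 (1.84), V3 cells were above and V1 and V2a cells below. For Gabrb2 (1.63), V1 and V2a cells were above and V3 cells below.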

How the results depend on the processing

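With DKO against WT motoneurons, leaving out each library in turn gave 0 to 3 members higher and 0 to 1 lower, and 27 to 797 genes higher and 70 to 1235 lower among all genes, the lowest counts without a DKO library and the highest without WT replicate 2. The untrended prior gave 491 genes lower. WT replicates 2, 3 and 4 alone gave 1282 genes higher, 1170 lower and 3 members lower, and replicates 1, 5 and 6 alone gave 985, 1330, 4 members higher and 1 lower. The labels share replicate numbers between these groups. Deviations from the group mean correlated at -0.0557 and -0.0101 between same-numbered libraries. With 2 DKO libraries these deviations are equal and opposite, so the correlations cannot show whether same-numbered libraries were handled together. A replicate block gave 120 genes higher and 94 lower and no member (0) higher, with Gabra5 at log2 0.95 (limma adjusted p = 0.073). Ache, Slc18a3, Nrxn3, Ly6e and Lypd6b were not called under it either (limma adjusted p of 0.153, 0.272, 0.196, 0.145 and 0.0564). WT replicates 3, 4, 5 and 6 have no DKO library of the same number. The genotype difference in the block fit thus rests on replicates 1 and 2 alone, and its lost calls do not use the other WT libraries. With WT motoneurons against interneurons, leaving out each library gave 8 to 16 members higher and 1 to 2 lower. Among all genes, these fits gave 2201 to 3000 higher and 1483 to 2702 lower. WT replicates 2, 3 and 4 alone gave 2 members lower, and replicates 1, 5 and 6 alone 7 members higher and 1553 genes lower. Against mES progenitors, leaving out each library gave 1 to 2 members lower, and WT replicates 1, 5 and 6 alone gave 1. No called member changed direction. Of the members not called, 11 of 29, 6 of 16 and 1 of 3 changed sign in some alternative in these comparisons. The cause of each change was not tested. The 2 DKO libraries, of which the first is the shallowest, limit every DKO result.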
